A study of Caenorhabditis elegans with 12 samples.

Results

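The alpha-synuclein A53T transgenic strain of Caenorhabditis elegans was compared with N2, the wild type, on 4 of the 12 deposited 2-colour microRNA arrays. The arrays were chosen by the strain label of their second channel, and every probe named for a C. elegans microRNA was used, 114 in all. The transgene encodes human alpha-synuclein with the A53T change, which is carried in a familial form of Parkinson's disease, and the strain is one of 3 worm models in the series. The other 8 arrays hold a cat-1 mutant (CB1111, e1111) and a pdr-1 mutant (VC1024, gk448) against the same wild type. All worms, N2 included, were grown at 20 °C on OP50 bacteria, synchronised, and taken at larval stage 4. The study describes 4 independent worm populations of each strain and 4 N2 preparations isolated separately; which N2 preparation went on which array is not given in the sources used here, so arrays of different strains may share one. Limits of the model are the unknown promoter of the transgene, the cells that express it and how many independent lines were made: none of these is stated in the labels. The transgene transcript is not a microRNA, so the arrays give no check of it. The comparison asks which microRNAs differ between the transgenic model and the wild type.

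MicroRNAs are short RNAs that guide Argonaute proteins to matching sites in messenger RNAs and lower their output. In C. elegans the let-7 and lin-4 families are known for timing the larval stages: lin-4 acts early, miR-48, miR-84 and miR-241 act next, and let-7 drives the change from larva to adult. Others mark tissues, such as miR-1 in muscle and miR-124 in sensory neurons, or a stage, such as the miR-35 family in embryos. The RNA came from whole worms, so a level is a sum over all tissues, and fewer cells of a type cannot be told apart from less RNA per cell.

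Values are log2 ratios of the strain signal over the N2 signal, normalized within each array to the other C. elegans microRNAs, so a ratio of 0 is the level of a typical microRNA of the same brightness. Strain over N2 is the likely direction: N2 is labelled as channel 1 and the strain as channel 2, and the files hold signals A and B. The dyes were not swapped on any array, so a probe's dye bias and a change in the strain cannot be told apart against N2.

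A signal was recorded for 65 of the 114 microRNAs in at least 1 channel of the 4 arrays, and the other 49 were at 0 throughout. The number with a ratio was 50 on replicate 1, 53 on replicate 2, 45 on replicate 3 and 13 on replicate 4. Ratios were available on all 4 arrays for 12 microRNAs, on 3 arrays for 24, on 2 for 17 and on 1 for 7. The 53 microRNAs with a ratio on at least 2 arrays were tested. Many values rest on 1 spot of the 3 printed: 30 of the 50 on replicate 1 did, against 8 of 53 on replicate 2, 16 of 45 on replicate 3 and 4 of 13 on replicate 4. Precision is limited by how few arrays there are.

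The balance of the channels differed between the 4 arrays. The summed C. elegans signal of the strain over that of N2 was 0.854 on replicate 1, 2.86 on replicate 2, 34.8 on replicate 3 and 1.69 on replicate 4. On the 7 distinct arrays of the mutants it ran from 1.12 to 5.01. Replicate 3 stood apart through its dim N2 channel, which summed to 9666 kU (scanner units divided by 1000) against 32399 to 97226 kU on the other alpha-synuclein arrays, while its dye control spots had a log2 ratio of 0.10. The 2 channels were little alike on it, with a correlation of log2 signals across spots of 0.0861, against 0.307 to 0.558 on the other 3 arrays and 0.406 to 0.976 on the mutant arrays.

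**Figure D1:**
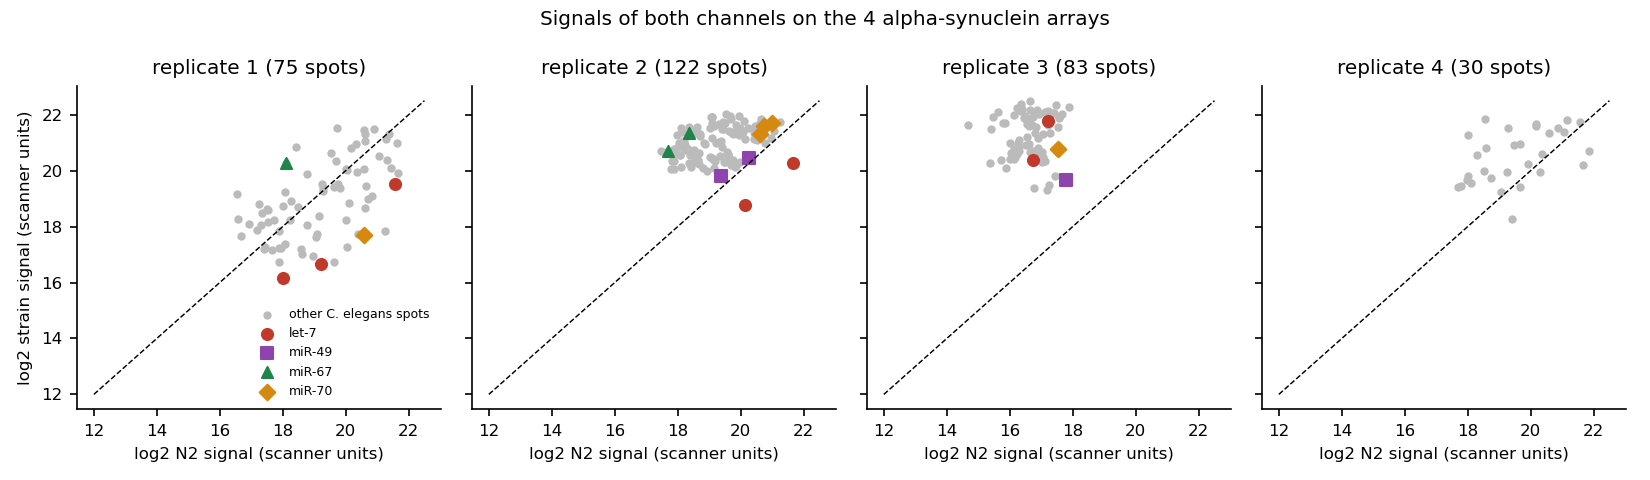
Log2 signal of the strain (y axis) against N2 (x axis), both in scanner units, for each C. elegans spot with a signal in both channels, 1 panel per alpha-synuclein array; the dashed line marks equal signals. All 83 spots of replicate 3 lie above the line, with raw log2 ratios from 1.89 upwards, while replicate 1 is spread around it.

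Replicate populations gave similar ratios for some microRNAs and different ratios for many. Across microRNAs, which share their array and are not independent replicates, the ratios of replicates 1 and 2 correlated at 0.49 (47 microRNAs), and the other 5 pairs at -0.12 to 0.24. The SD between arrays, pooled over the 31 tested microRNAs with a ratio on at least 2 arrays of each strain, was 0.78 in the alpha-synuclein strain, 0.46 in pdr-1 and 0.40 in cat-1. The spots of a probe within an array were also more uneven: the median spot SD was 0.37 to 0.55 on the alpha-synuclein arrays and 0.13 to 0.34 on the mutant arrays. Of the 53 microRNAs, 20 lay on the same side of 0 on every array that measured them (37.7%), 14 above and 6 below. With random signs the chance of this for 1 microRNA is 0.5 on 2 arrays, 0.25 on 3 and 0.125 on 4, so the count alone does not show agreement.

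By limma with Benjamini-Hochberg adjustment over the 53 microRNAs, 3 differed from N2 (5.66%): let-7 and miR-49 were lower and miR-67 was higher. An unadjusted p under 0.05 was reached by 9. limma's moderation gave all microRNAs 1 shared SD of 0.84, so a standard error depends only on the number of arrays: 0.59 for 2 arrays, 0.48 for 3 and 0.42 for 4. With each microRNA's own spread in its place, 0 of 53 passed and 0 had an unadjusted p under 0.05. Sign flips of 4, 3 or 2 arrays can reach an exact two-sided p of only 0.125, 0.25 or 0.5.

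let-7 was 3.48-fold lower in the transgenic strain relative to the other microRNAs (log2 change -1.80 ± 0.48 SE, 95% interval -2.75 to -0.85, limma adjusted p = 0.0179). The SE and interval use the shared SD of 0.84, while the SD of let-7 between its 3 arrays was 1.24. With that own spread the SE was 0.71. The mean signal of let-7, in kU, was 1321 in N2 and 311 in the strain on replicate 1, 2236 and 854 on replicate 2, and 130 and 2458 on replicate 3. Its normalized log2 ratios on those arrays were -1.87, -3.00 and -0.52, from 3, 2 and 2 spots, and replicate 4 held no signal. All 3 values were below 0, and on replicates 1 and 2 the strain signal was also lower before normalization. Without replicate 2 the mean was -1.20 and no longer passed (adjusted p = 0.659). Without normalization the mean turned to 0.19, where the median of all 53 stood at 1.85, and with centring on the dye controls it was -0.02, where that median was 1.64. Both medians include microRNAs measured on other sets of arrays. With each array's own median subtracted, let-7 stood at -1.86.

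miR-49 was 3.69-fold lower on the 2 arrays that measured it (log2 change -1.88 ± 0.59 SE, limma adjusted p = 0.0421). Its N2 and strain signals were 965 and 1173 kU on replicate 2 (2 spots) and 226 and 837 on replicate 3 (1 spot). The normalized ratios were -1.65 and -2.12 (SD 0.33). Both arrays thus placed miR-49 among the lowest microRNAs, although its raw strain signal was above that of N2 on each. Without normalization it stood at 1.10 and with dye-control centring at 0.90, both above 0, and 0.74 below the median of all 53 in the former case. That median includes microRNAs measured on other sets of arrays, whose channel balance differed. With each array's own median subtracted, miR-49 stood at -2.06. miR-49 was measured on 1 mutant array only, pdr-1 replicate 3, at -0.81.

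On the 2 arrays with a ratio, miR-67 was 3.60-fold higher (log2 change 1.85 ± 0.59 SE, limma adjusted p = 0.0421). miR-67 of C. elegans is widely used in mammalian cells as a control microRNA with no intended target. Its N2 and strain signals were 279 and 1254 kU on replicate 1 (1 spot) and 273 and 2186 on replicate 2 (2 spots). The normalized ratios were 2.83 and 0.86, both above 0 but 1.97 apart (SD 1.39, above the shared SD of 0.84). It passed no longer with a wider loess span of 0.7 (1.77, adjusted p = 0.0583). On the mutant arrays miR-67 was measured once, on pdr-1 replicate 3, at 0.65.

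**Figure D2:**
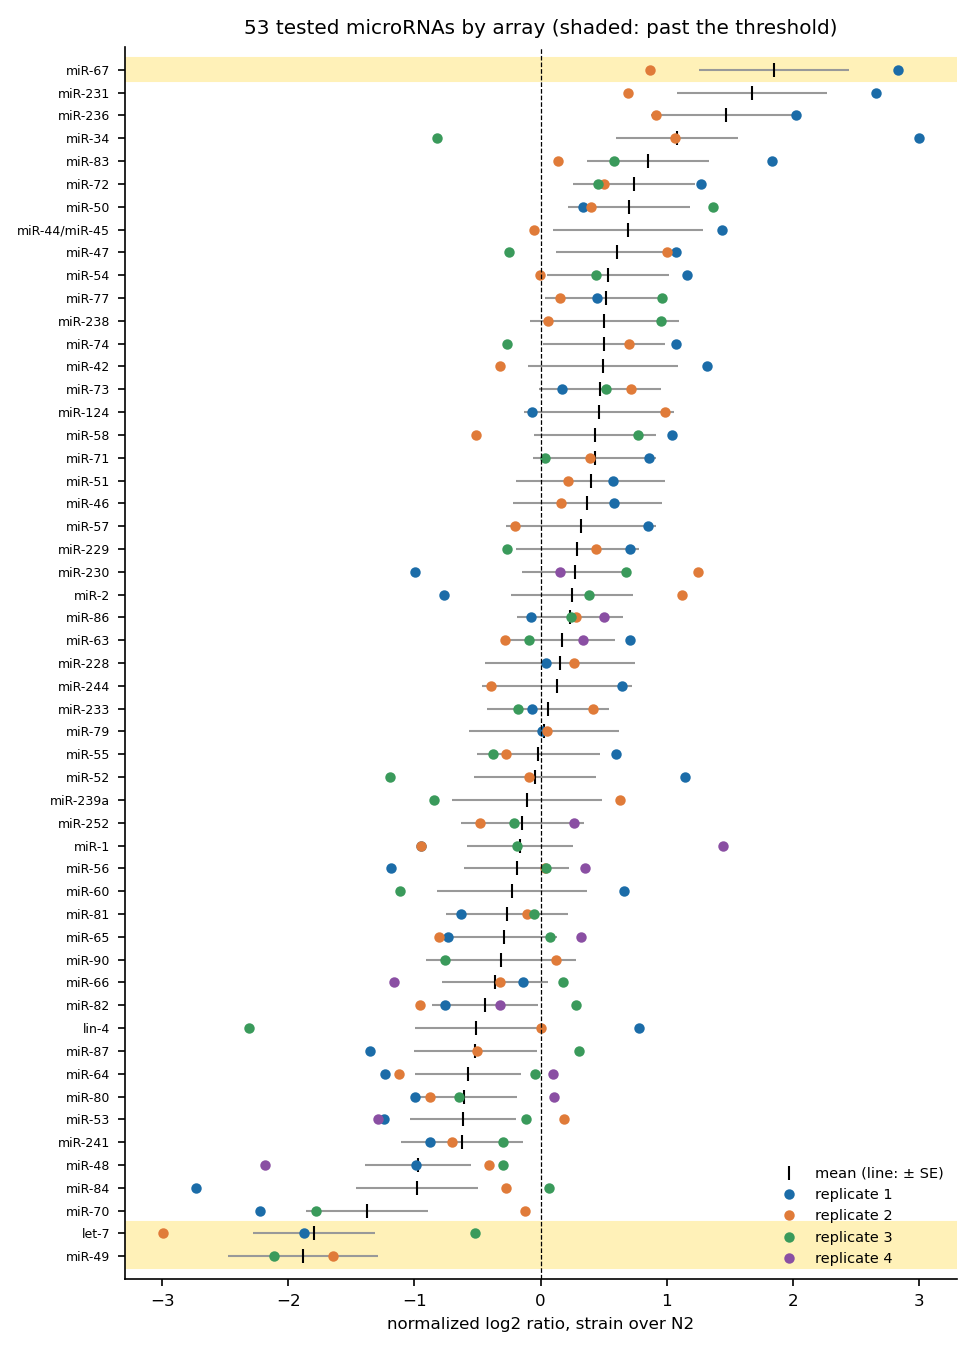
Normalized log2 ratio of strain over N2 (x axis) for the 53 tested microRNAs (rows, by mean); coloured points are arrays, black ticks means and grey lines ± 1 SE from the fit. The 3 shaded microRNAs passed the threshold, and for 33 of the 53 the arrays lie on both sides of 0.

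The next microRNAs by p-value did not pass. miR-70 stood at -1.38 ± 0.48 (limma adjusted p = 0.0609), with ratios of -2.22, -0.13 and -1.78 on replicates 1, 2 and 3. The replicate 2 value is close to 0 and rests on 3 spots, the other 2 values on 1 spot each. miR-70 passed with median centring in place of loess (-1.69, adjusted p = 0.0128). miR-231 had a mean of 1.67 ± 0.59 (adjusted p = 0.0609) from 2.66 on replicate 1 and 0.69 on replicate 2, a pattern like that of miR-67 on the same 2 arrays. miR-236, whose seed is that of the miR-200 family of vertebrates, stood at 1.47 (adjusted p = 0.131), with 2.03 and 0.91 on these arrays.

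miR-34, linked to stress and DNA damage responses, held the widest spread of any tested microRNA. Its ratios were 3.00, 1.06 and -0.82 on replicates 1, 2 and 3 (mean 1.08, SD 1.91, limma adjusted p = 0.185), so replicate 3 lay on the other side of 0. Without replicate 3 it stood at 2.03 and passed (adjusted p = 0.0201). miR-83, a relative of vertebrate miR-29, stood at 0.85 with 1.83, 0.13 and 0.58, all above 0 (adjusted p = 0.437). Its mutant means were also above 0, at 0.34 (cat-1) and 0.67 (pdr-1). miR-235, a relative of miR-92 known for holding starved larvae in arrest, was measured on replicate 1 only of the alpha-synuclein arrays, at 1.73 from 1 spot, and was not tested.

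**Figure D3:**
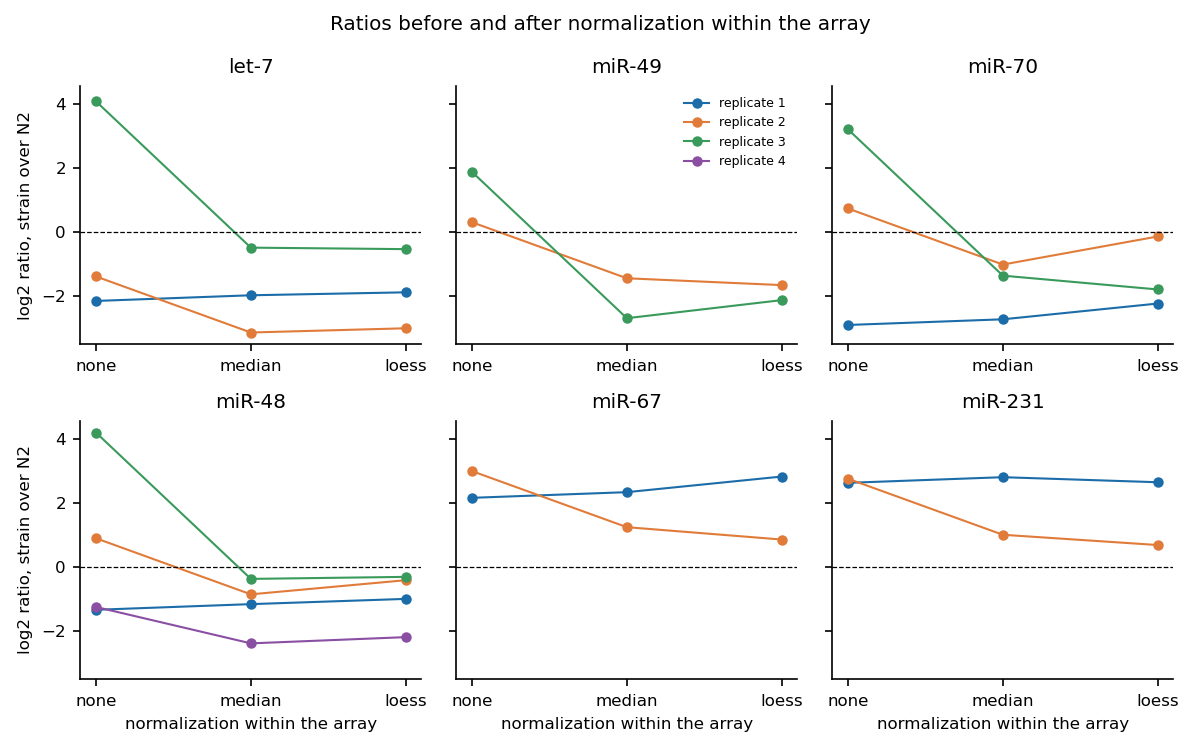
Log2 ratio of strain over N2 (y axis) of 6 microRNAs on each array (coloured lines) with no normalization, with the array's median subtracted and with loess (x axis). On replicate 3 all ratios shown are above 0 before normalization and below 0 after it, while let-7 on replicates 1 and 2 is below 0 in each case.

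The let-7 family has 4 probes on the array, all tested, with 4 of 4 means below 0 and a median of -0.98, where the median of all tested microRNAs was 0.16. Of all 53 tested means, 23 were below 0. Of its members 1, let-7, passed, against 3.77% of all tested microRNAs called lower. miR-48 gave -0.99, -0.41, -0.30 and -2.18 on replicates 1 to 4 (mean -0.97 ± 0.42, limma adjusted p = 0.172), all below 0, and was lowest on replicate 4. miR-84 gave -2.73, -0.28 and 0.06 on replicates 1 to 3 (mean -0.98, adjusted p = 0.268), so its mean came mostly from replicate 1. miR-241 gave -0.88, -0.70 and -0.29 (mean -0.63, adjusted p = 0.661), all below 0. In the mutants miR-48 also had means below 0, at -0.11 (cat-1) and -0.59 (pdr-1). Those of miR-84 (0.19 and 0.10) and miR-241 (1.06 and 1.14) were above 0. The genes of miR-48 and miR-241 neighbour each other. Members of a family differ by few bases, and how far one binds another's probe was not tested. Without normalization the family median was 0.71, with the median of all 53, measured on differing sets of arrays, at 1.85. With median centring the family median was -1.22 and that of all 53 was 0.13.

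lin-4, the founding timing microRNA, did not share this pattern on each array. Its ratios were 0.78, 0.00 and -2.31 on replicates 1 to 3 (mean -0.51, SD 1.61, limma adjusted p = 0.668). The replicate 3 value rests on 1 spot, where N2 gave 149 and the strain 645 kU. Its relative miR-237 gave no signal.

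Larger families of abundant microRNAs held 0 of the 3 calls among all 53 tested (5.66%). Of all 53 means, 23 were below 0. The miR-58 family, related to insect bantam and among the most abundant in the worm, had 4 tested members with 3 means below 0 and a median of -0.35. miR-80 stood at -0.60 (-0.87, -0.65 and 0.11 on replicates 2 to 4 and lowest on replicate 1, limma adjusted p = 0.580), with 3 arrays below 0 and replicate 4 slightly above. miR-82 stood at -0.44 and miR-81 at -0.26, while miR-58 itself had a mean of 0.43 from 1.04, -0.52 and 0.77. In the mutants the mean of miR-80 was also below 0, at -0.15 (cat-1) and -0.36 (pdr-1). The 6 members of the miR-51 family, which is needed in embryos, had a median of -0.03 and ran from -0.62 (miR-53) to 0.53 (miR-54). miR-53 gave -1.24 and -1.29 on replicates 1 and 4 but 0.19 and -0.12 on replicates 2 and 3. miR-52 gave 1.15, -0.09 and -1.20, so that its mean of -0.05 hides opposite values. miR-51 (0.40), miR-55 (-0.02) and miR-56 (-0.19) completed the family.

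The miR-63 family and the mir-229 cluster had 5 tested members with a median of -0.29, 3 of them below 0, and 0 passed. Of all 53 tested, 23 means were below 0 and 3 microRNAs passed (5.66%). miR-64 gave -1.23, -1.13, -0.05 and 0.10 on replicates 1 to 4 (mean -0.58), and miR-65 gave -0.74, -0.81, 0.07 and 0.32 (mean -0.29). Both were below 0 on replicates 1 and 2 and near or above it on replicates 3 and 4. The mean of miR-66 was -0.36, while miR-63 (0.17) and miR-229 (0.29) had means above 0. In the mutants miR-64 and miR-65 also had means below 0. These were -0.53 (cat-1) and -0.32 (pdr-1) for miR-64, and -0.53 and -0.31 for miR-65. The genes of this list other than mir-63 are neighbours in the gene table.

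The 3 tested members of the miR-72 family all had means above 0, with a median of 0.50, and 0 passed. Of all 53 tested means, 30 were above 0, and 3 of the 53 passed (5.66%). miR-72 gave 1.27, 0.50 and 0.45 on replicates 1 to 3 (mean 0.74, limma adjusted p = 0.580). miR-73 gave 0.17, 0.72 and 0.52 (mean 0.47), and miR-74 gave 1.07, 0.70 and -0.27 (mean 0.50). miR-72 and miR-73 were above 0 on every alpha-synuclein array that measured them, and miR-74 on 2 of 3. In the cat-1 mutant the means were also above 0, at 0.91 (miR-72), 0.23 (miR-73, 1 array) and 0.55 (miR-74, 1 array). In pdr-1 they were -0.02, -0.0003 and 0.33. The genes mir-73 and mir-74 are neighbours.

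**Figure D4:**
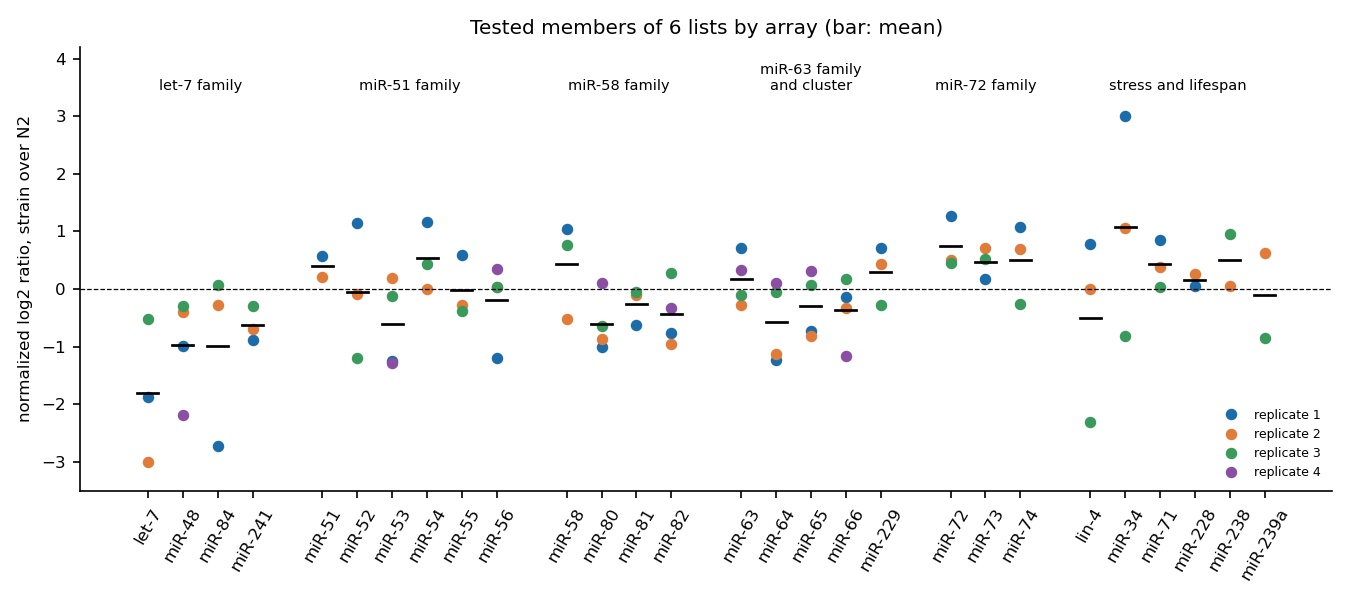
Normalized log2 ratio of strain over N2 (y axis) for the tested members of 6 lists (x axis); coloured points are arrays and black bars means. The 4 let-7 family means lie below 0 and the 3 miR-72 family means above it, while members of the other lists lie on both sides. Of all 53 tested means, 30 were above 0 and 23 below.

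Of 8 microRNAs linked to stress and lifespan, 6 were tested, with a median of 0.29 and 0 calls (5.66% of all 53 called). Beside miR-34 and lin-4 these were miR-71, which promotes long life, at 0.43 (0.86, 0.39 and 0.03 on replicates 1 to 3), and miR-238 at 0.51 (0.06 and 0.95 on replicates 2 and 3). The glial microRNA miR-228 stood at 0.16 and miR-239a at -0.11, the latter from 0.63 and -0.85. All 3 arrays with miR-71 were above 0, though replicate 3 hardly so. The mutant means of miR-71 were also above 0, at 0.91 (cat-1) and 0.36 (pdr-1).

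Tissue markers were present but uneven. miR-1, a muscle microRNA that also tunes the neuromuscular junction, was the 1 marker measured on all 4 arrays, at -0.95, -0.95, -0.19 and 1.45 (mean -0.16, SD 1.13, limma adjusted p = 0.829), with replicate 4 opposite to the others. The neuronal miR-124 was measured on replicates 1 and 2, at -0.07 and 0.99, with N2 signals of 178 and 652 kU. lsy-6, a microRNA of 1 taste neuron that makes it unlike its partner, was at 0 in both channels, and miR-791 has no probe. Neuronal microRNAs thus contributed 1 tested value.

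Probes of the miR-35 family, listed here as markers of embryo and germ line, held signals on replicate 3 in both channels. Of the 8 miR-35 family probes, 4 held a strain signal and 3 an N2 signal there, while each other array of the series held 0 or 1. On replicate 3 miR-35 had N2 and strain signals of 84.3 and 4362 kU and a normalized ratio of 1.11, from 3 spots. miR-39 stood at 0.60 (2 spots) and miR-37 at 0.28 (1 spot). The family's member miR-42 was instead measured on replicates 1 and 2, at 1.32 and -0.32. Of the 3 calls, miR-67 was not measured on replicate 3, let-7 stood at -2.43 without it, and miR-49 then had 1 array left. The shared SD behind all 3 calls was fitted with replicate 3 included. Whether the signals of replicate 3 include embryo or germ line material was not tested, nor was its part in the other ratios.

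A strain signal without any N2 signal on the 4 arrays was seen for 5 microRNAs, miR-40, miR-59, miR-75, miR-78 and miR-246, and the reverse for 0. All 5 came from replicate 3, with mean strain signals of 674 (miR-246, 1 spot) to 1565 kU (miR-75, 1 spot). On that array the N2 channel was 34.8-fold dimmer in sum than the strain channel, and 45 spots held a strain signal only. Their median strain signal was 1565 kU, against 3078 for the 83 spots with both signals. No fold is given for these microRNAs, as their N2 level is listed at 0.

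The remaining named microRNAs did not pass, and most varied in sign between arrays. miR-50 gave 0.34, 0.40 and 1.36 on replicates 1 to 3 (mean 0.70) and miR-77 gave 0.44, 0.15 and 0.97 (mean 0.52), each above 0 on 3 of 3 arrays. miR-47 had a mean of 0.61, the probe shared by miR-44 and miR-45 one of 0.69, and miR-2 one of 0.25, with arrays on both sides of 0 in each case. miR-87 had a mean of -0.52, from -1.35, -0.51 and 0.31. The limma adjusted p-values of these 6 were 0.580 or more.

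A dye bias that is the same on all arrays drops out of a difference between strains. The dye control log2 ratios differed, at 0.10 to 0.31 on the alpha-synuclein arrays and 0.23 to 1.27 on the mutant arrays. Whether a probe's dye bias was the same on all arrays was not tested. The files of cat-1 replicates 3 and 4 hold identical values and were counted as 1 sample. With all 11 distinct arrays in 1 limma fit, 0 of 48 microRNAs differed between the alpha-synuclein strain and the cat-1 mutant (0%), with 4 at an unadjusted p under 0.05. Against the pdr-1 mutant 0 of 49 did (0%), with 3 at an unadjusted p under 0.05. The SEs of this fit rest on an SD of 0.70 shared by all strains, against 0.84 on the alpha-synuclein arrays alone. They thus borrow the smaller spread of the mutant arrays given above. let-7 led both lists. It stood 1.62 below its cat-1 mean (log2 difference -1.62 ± 0.57 SE, adjusted p = 0.206), and 1.76 below its pdr-1 mean (-1.76 ± 0.53, adjusted p = 0.0526). Its mutant means were -0.17 and -0.04. miR-241 followed, with differences of -1.68 (adjusted p = 0.206) and -1.77 (adjusted p = 0.143), and mutant means of 1.06 and 1.14. Its mutant arrays lay far apart, at -0.02 and 2.14 on cat-1 replicates 2 and 3 and at 0.58 and 1.71 on pdr-1 replicates 3 and 4. Without cat-1 replicate 3 the miR-241 difference was -0.61 (adjusted p = 0.978), and without cat-1 replicate 2 it was -2.76 and passed (adjusted p = 0.0377). Without pdr-1 replicate 4 its difference from pdr-1 was -1.20 (adjusted p = 0.943). Without normalization the let-7 difference from cat-1 was -0.26 and that of miR-241 -0.30. Their differences from pdr-1 without normalization were -1.67 and -1.77, neither of which passed (limma adjusted p = 0.991 for each). The third was miR-70 against cat-1 (-1.88, 1 cat-1 array) and miR-84 against pdr-1 (-1.08, and -0.21 without alpha-synuclein replicate 1). Replicates 1 and 4 of pdr-1 correlated at -0.59 over 14 microRNAs with loess and at -0.22 with median centring. On the loess value their direction was taken as not settled, and differences from pdr-1 were recomputed with the sign of either turned. With replicate 1 turned the let-7 difference was -1.65 (adjusted p = 0.0970) and with replicate 4 turned -1.78 (adjusted p = 0.0541), while that of miR-241 was -0.06 with replicate 4 turned. miR-49 and miR-67 had no cat-1 value, and their differences from the 1 pdr-1 array were -1.08 and 1.20.

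**Figure D5:**
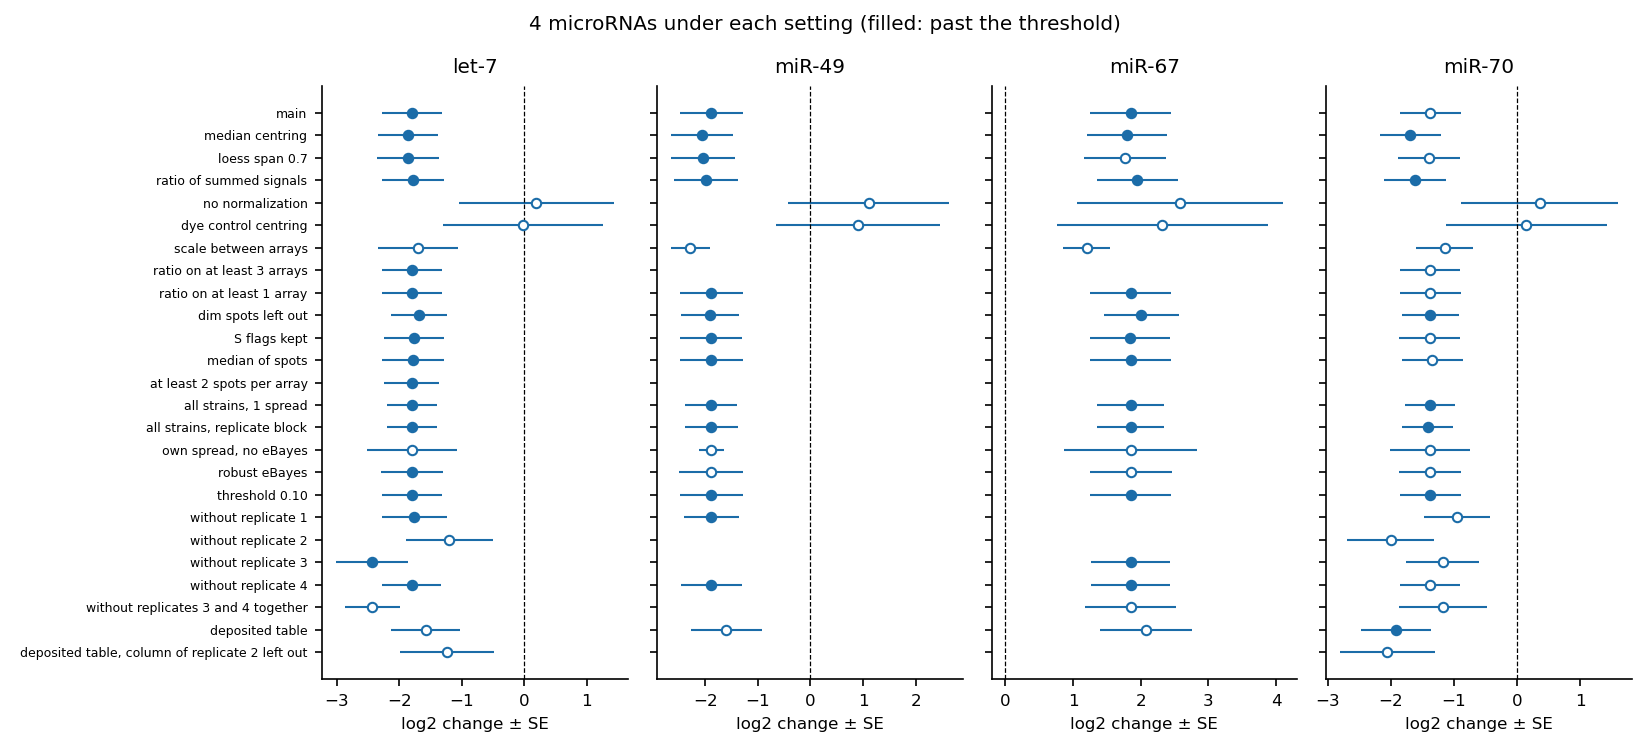
Log2 change ± SE against N2 (x axis) of let-7, miR-49, miR-67 and miR-70 under each processing setting (rows); filled points passed the threshold, and an empty row means that the microRNA was not tested there. let-7 passed in 16 of 24 alternatives, miR-49 in 12 of 18, miR-67 in 11 of 19 and miR-70 in 6 of 23 at the 0.05 level. These counts do not measure stability, as some alternatives could not move a change. The 0.10 threshold repeats the main fit, and leaving out an array without a value keeps the change as it was.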

How the data were processed

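Small RNA (under 200 nt) of N2 and of a strain was labelled with 2 dyes and hybridised together on NCode arrays, per the labels' protocols. The authors deposited 1 scanner file per array with an intensity per spot and channel and a flag letter, whose meaning is not given in the sources used here; background correction is not stated. The authors' deposited value table holds a log2 ratio per spot. For replicates 1, 3 and 4 its columns equal the scanner log2 ratios minus a constant (correlation 1), while the column of replicate 2 correlated at 0.721 with its scanner file; the column medians were 0.07, 0.27, -0.06 and 0.40. How the authors centred it is not stated, so it served as an alternative. No other column of per-sample values was left unmapped (0).

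From the scanner files, log2(B/A) was taken for C. elegans spots with a signal above 0 in both channels and no S flag, normalized within each array by loess (span 0.3, 4 iterations), and averaged over the up to 3 spots of a probe. microRNAs with a ratio on at least 2 of the 4 arrays were tested against 0 with limma 3.58.1 in R 4.3.3 (lmFit, eBayes), with Benjamini-Hochberg adjustment over all tested and a threshold of 0.05. Only the alpha-synuclein arrays entered this fit; all 11 distinct arrays entered the differences from the mutants. The procedure was tested on simulated data. The named microRNAs are those past the threshold and the next by p-value up to 25, the measured members of the lists, those with a signal in 1 channel only, and the first 3 by p-value in each difference from a mutant. Members, lists and rules were chosen with earlier results of these data known. Alternatives varied normalization, filters, spots, spread estimate, arrays and value table. Names were matched to RefSeq gene symbols (WBcel235) for 108 of 114 probes, for names and neighbours only. The 4 arrays limit the precision.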

Additional observations from a re-analysis of the deposited data

Results flagged for a closer look

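Replicate 4 of the alpha-synuclein strain stood apart in detection: 14 C. elegans probes held a strain signal, against 50, 53 and 55 on replicates 1, 2 and 3. Its gap to the nearest array was 0.878 of the whole range, above the critical value of 0.829 for 4 samples. Such a test was made on 12 microRNAs with 4 ratios and on 6 array measures, and chance alone passes about 1 in 20.

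Among the 939 probes that carry only a number for a name, 26 had a value above 0 in either channel on replicate 1, 34 on replicate 2, 40 on replicate 3 and 9 on replicate 4, while 0 of 1059 blank spots did on these arrays. On the mutant arrays the count ran from 9 to 57. The files give these probes no gene, and they enter no comparison.

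Of 228 mismatch, reversed or shuffled control spots, 1 held a signal on replicate 3 and 1 on replicate 4, and 0 on replicates 1 and 2.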

How the results depend on the processing

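The 3 calls against N2 were fragile. The count became 6 with median centring (2 higher, 4 lower), 5 with the ratio of summed signals, 1 with a ratio required on at least 3 arrays, 1 with at least 2 spots per array, 1 with robust moderation, 5 at a threshold of 0.10, and 7 with the spread shared over all strains. In limma fits it was 0 without normalization (13 with an unadjusted p under 0.05), 0 with dye-control centring (5) and 0 with ratios scaled between arrays (5). It was 0 with each microRNA's own spread (0) and, added after seeing the data, 0 without replicates 3 and 4 together (4). The deposited table gave 1 (miR-70), and 0 without its replicate 2 column (1). Leaving out 1 alpha-synuclein array gave 0 to 3 calls, with 0 without replicate 2. Without normalization let-7 turned to 0.19 and miR-49 to 1.10, and with dye-control centring miR-49 turned to 0.90; these scalings keep each array's channel balance. Against cat-1, leaving out 1 array gave 0 to 1 calls (let-7 without alpha-synuclein replicate 3, miR-241 without cat-1 replicate 2). Against pdr-1, median centring gave 1 (let-7), and leaving out 1 array gave 0 to 1 (let-7, without alpha-synuclein replicate 1 or 3). Same-numbered arrays deviated with correlations of -0.78 to 0.11. Whether they share an N2 preparation cannot be told from these values, as microRNAs of an array are not independent. The all-strain fit with the replicate block gave 7 calls against N2 and 0 against either mutant. With a signal required in all 3 spots, N2 and strain probes numbered 5 and 5 on replicate 1, 24 and 24 on replicate 2, 9 and 30 on replicate 3, and 8 and 8 on replicate 4. Over 43 named microRNAs, 804 of 965 recomputed changes kept direction and side of the threshold and, where uncalled, moved by less than the SD between arrays. Another 18 gained a call, 19 lost it with the sign kept, 3 lost it with the sign turned, and 121 uncalled ones moved. The sign turned in 80, 3 of them the called let-7 and miR-49 changes above and 77 uncalled, with 20 of 43 turning without normalization and 19 with dye-control centring. The 804 unchanged ones include settings that reuse the same ratios, where a change could not move. These are the 0.10 threshold, the own, robust or all-strain spread, and another minimum of arrays. Without normalization 2 of 43 stayed the same, and with dye-control centring 7.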
